A study of Rattus norvegicus with 12 samples.

Results

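Nav2, Tenm3 and Plxnc1 encode proteins that act where growing axons choose their path. Nav2 encodes neuron navigator 2, a large cytoskeleton-associated protein needed for neurite outgrowth. Tenm3 encodes teneurin 3, a transmembrane protein that takes part in the matching of axons with their targets. Plxnc1 encodes plexin C1, a receptor for semaphorin 7A. The differentially methylated m6A peaks at these 3 genes were described in rat sciatic nerve. The members were chosen on measured values of the same peak list, Nav2 and Tenm3 for their number of named peaks and Plxnc1 for its score. These numbers and scores are therefore given as a description, without a test. In all, 36 of the 4014 peaks of the deposited list were found, 23 at Nav2, 11 at Tenm3 and 2 at Plxnc1.

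N6-methyladenosine (m6A) is placed on messenger RNA by a methyltransferase complex and removed by demethylases, and it is read by proteins that act on the splicing, translation and decay of the transcript. In MeRIP-seq, fragmented RNA is enriched with an antibody against m6A (IP) and sequenced beside a portion that was not enriched (input), and stretches with more IP than input reads are called peaks. The sciatic nerve holds axons, Schwann cells, fibroblasts, vessels and immune cells, but the cell bodies of its neurons lie elsewhere. After injury the distal axons degenerate, Schwann cells dedifferentiate and guide regrowing axons, and macrophages enter the nerve.

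Sciatic nerves of 3 control rats and 3 rats with sciatic nerve injury (SNI) were used, each with an IP and an input library, 12 libraries in all. The rats were female Wistar rats of 100 to 120 g without a transgene, control nerves were uninjured, and SNI nerves were taken at the centre of the injury after 7 days. The deposited list holds 1 row per peak that differed between SNI and control, from a comparison over all replicates together, with its position on the rn5 assembly, its strand and a score. The score is −log10 of the p-value of the peak and measures evidence, not the size or direction of the change. The list holds no value per library, so the spread between replicates, the depth behind a peak and the levels of cell type markers are unknown here. In bulk tissue a change in the methylation of a transcript and a change in the cells that carry it cannot be told apart, and the part of either in these peaks was not tested.

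Peaks on the strand of the gene were counted within 50 kb of its outermost named peaks. A peak was called named when the part of the study's supplementary sheet used here gives it the symbol of the gene. That sheet holds peaks with higher methylation after SNI, so the named peaks have this direction, while the direction of the other peaks is not given here. Of all peaks in the list, 526 (13.1%) had a name in these rows. For the members 13 of 36 peaks were named, 7 at Nav2, 5 at Tenm3 and 1 at Plxnc1. The list holds 0 peaks on the other strand within 50 kb at any of the 3 genes, and this also held within 100 kb. No peak in the 3 windows was named for another gene. No sequence of these peaks was read, since no rn5 genome was used here. All distances, gaps and spans are on the genome and include introns, which spliced mRNA lacks. Exon positions were not read, so these distances do not give the spacing of peaks along the transcript.

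Nav2 carried a series of 23 plus-strand peaks on chromosome 1 from 105750778 to 105991900, a stretch of 241 kb. Their median score was 6.98, with a range from 5.27 to 10.8, against a median of 7.46 in the whole list. Lengths ran from 3 to 1093 bases with a median of 139 bases, against 152 bases in the list. The typical Nav2 peak was thus close to the list in length, and 6 of 23 scored above the median of the list. When peaks of 1 strand at most 50 kb apart were joined into groups, the Nav2 series was 1 group and had the fourth largest number of peaks among 1980 groups, of which 1275 held a single peak. This depended on the limit, since the widest gap of the series was 49.0 kb, and with a limit of 40 kb the series fell into 2 groups, the larger with 13 peaks and rank 16. The same joining at 50 kb split the Tenm3 peaks into 3 groups, the largest with 8 peaks and rank 49, and placed the 2 Plxnc1 peaks at rank 383. Nav2 and Tenm3 were chosen for their number of named peaks, so these ranks are only a description.

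The 7 named Nav2 peaks lay between 105785011 and 105991560, with a median score of 6.37 and a median length of 123 bases. The 16 peaks without a name had a median score of 6.996 and a median length of 150 bases. Of these, 13 lay between the outermost named peaks and therefore within the span of the gene, 2 lay before the first named peak and 1 just after the last. Named and other peaks were interspersed along the gene, and 2 of the 22 neighbouring pairs were both named. The scores of both kinds overlapped, from 5.91 to 7.63 for named peaks and from 5.27 to 10.8 for the others.

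Along the direction of transcription, the Nav2 peaks began with 2 peaks without a name, from 105750778 to 105750896 (118 bases, score 7.60) and from 105760943 to 105760996 (53 bases, score 6.74). They lay 34.1 kb and 24.0 kb before the first named peak, and whether they belong to Nav2 was not tested. The first named peak, from 105785011 to 105785084, was 73 bases long with a score of 7.18. It was followed by 2 peaks without a name, from 105794405 to 105794673 (268 bases, score 6.60) and from 105805171 to 105805338 (167 bases, score 7.01). The first part of the series was therefore thin, with neighbouring peaks 9.3 kb or more apart.

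A tighter run of 4 peaks followed from 105839137 to 105848753. It held the longest Nav2 peak, from 105839137 to 105840230 (1093 bases), which is longer than 97.3% of the peaks of the list but had a score of only 6.06. The named peak after it, from 105845375 to 105845488, was 113 bases long with a score of 6.37. The other 2 peaks of this run had no name, and were 109 and 390 bases long with scores of 5.78 and 7.09. The named peak from 105875041 to 105875164 (123 bases, score 6.35) stood alone, 26.3 kb after this run and 49.0 kb before the next peak.

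The densest stretch lay in the later part of the series, where 10 of the 23 peaks fell within 44.8 kb from 105924183 to 105968936. Only 3 of these 10 were named, and the median score was 7.42. The first 3, without a name, were 139, 292 and 703 bases long with scores of 7.70, 6.98 and 7.21. The shortest Nav2 peak, from 105940941 to 105940944, was 3 bases long with a score of 7.90, and such a length is far below that of a sequenced fragment. Both Nav2 peaks with a score of at least 8 lay here, against 37.1% of the peaks of the list that reach this score. The first of these, from 105943638 to 105943799 (161 bases), had a score of 9.69 and ranked 720 in the list. The second, from 105950341 to 105950394 (53 bases), had a score of 10.8 and ranked 385. A peak of 109 bases with a score of 6.59 lay between them, and neither of the high-scoring peaks was named.

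The 3 named peaks of this stretch lay one after the other, and only the middle one scored above the median of the list. The first, from 105951414 to 105951489, was 75 bases long with a score of 5.91. The second, from 105958504 to 105958650 (146 bases), had the highest score of the named Nav2 peaks at 7.63, and the third, from 105968782 to 105968936 (154 bases), had 6.03. The peak from 105975121 to 105975169 had the lowest Nav2 score at 5.27 and a length of 48 bases. The series ended in a close pair, the named peak from 105991281 to 105991560 (score 7.19) and a peak without a name from 105991621 to 105991900 (score 6.64). Both were 279 bases long and lay 61 bases apart.

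Outside the window, the next plus-strand peak before Nav2 lay 153 kb from the first named peak, from 105631321 to 105631579, with a score of 6.46. The next one after it lay 154 kb from the last named peak, from 106145090 to 106145160, with a score of 12.4. The peak farthest from the named peaks inside the window had a distance of 34.1 kb and a score of 7.60, so no peak lay close to the limit. By the order of genes in GRCr8, the current rat assembly, the nearest named protein-coding genes are E2f8 before Nav2 and Dbx1 after it.

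**Figure D1:**
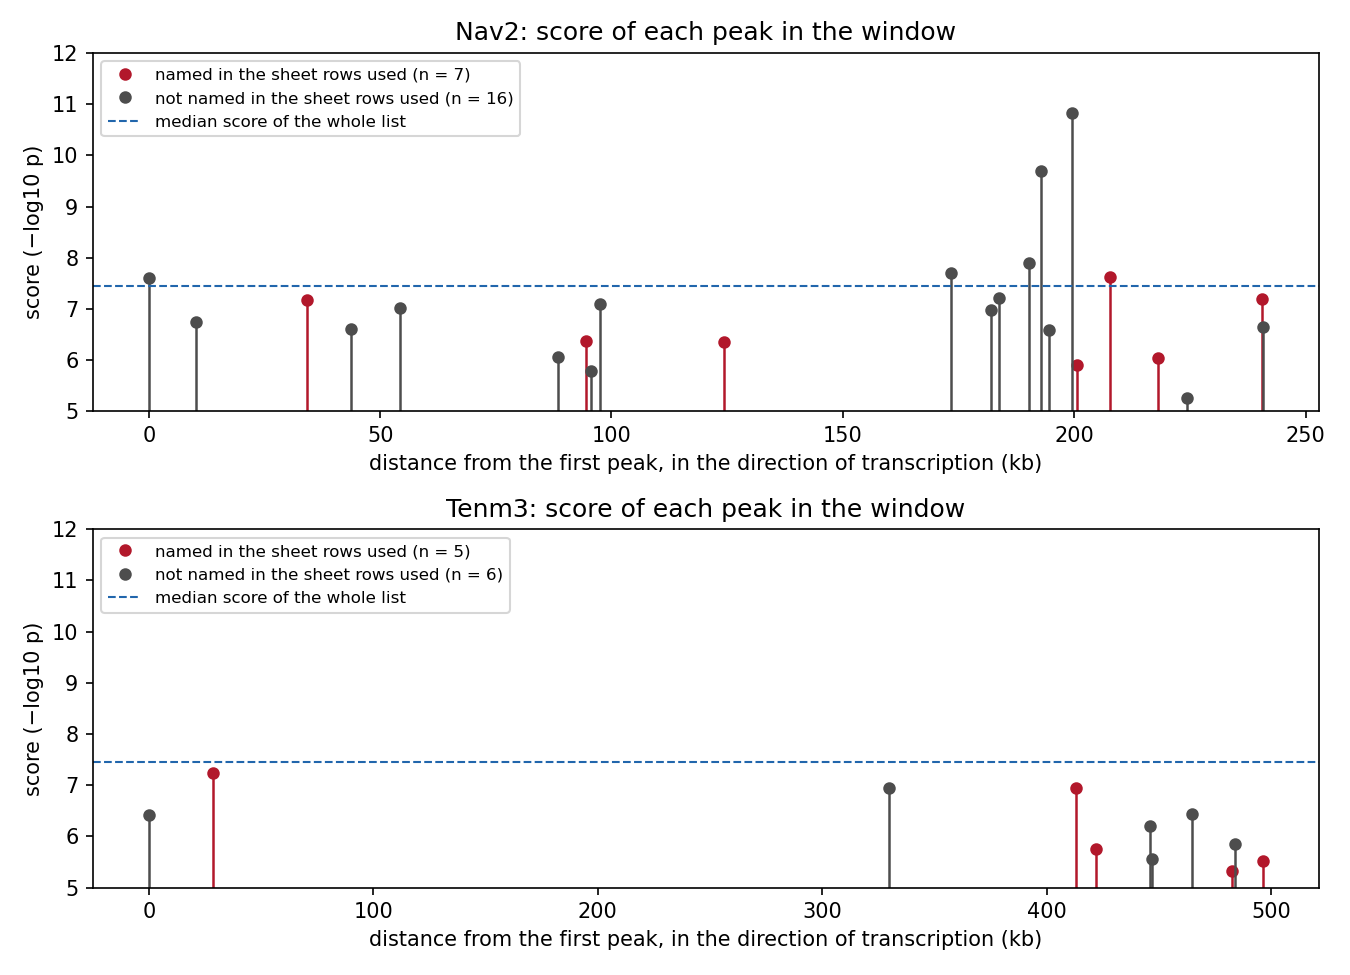
Score (−log10 p) of each peak at Nav2 and Tenm3 against the distance from the first peak in kb, with named peaks in red, peaks without a name in grey and the median score of the whole list (7.46) as a dashed line. At Nav2 both scores of at least 8 stood in the dense stretch and had no name, and at Tenm3 all 11 peaks stayed below the dashed line.

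Tenm3 carried 11 plus-strand peaks on chromosome 16 from 46157682 to 46654920, spread over 497 kb. All 11 scored below the median of the list, from 5.32 to 7.24 with a median of 6.20, and 0 reached a score of 8. The peaks were long, with a median of 279 bases and a range from 147 to 895 bases, and 10 of the 11 were longer than the median of the list. The 5 named peaks had a median score of 5.75 and a median length of 279 bases, and the 6 others a median score of 6.31 and a median length of 260 bases. Of these 6, 5 lay between the outermost named peaks.

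The first 3 Tenm3 peaks were far apart. A peak without a name, from 46157682 to 46157963 (281 bases, score 6.42), lay 28.3 kb before the first named peak. The named peak from 46186280 to 46186559 was of almost the same length, 279 bases, and had the highest Tenm3 score at 7.24. A gap of 301 kb without a plus-strand peak followed, then a peak without a name from 46487336 to 46487575 (239 bases, score 6.94) and a further gap of 83.3 kb.

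The remaining 8 peaks lay within 84.0 kb, from 46570888 to 46654920, and 4 of them were named. The named peak from 46570888 to 46571035 was the shortest of Tenm3 with 147 bases and had a score of 6.94. The named peak from 46579521 to 46579738 (217 bases) had a score of 5.75. Then came 3 peaks without a name, of 155, 875 and 176 bases with scores of 6.20, 5.55 and 6.45. Scores in this last part were low and lengths were often high.

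The 3 longest Tenm3 peaks had the 3 lowest scores. These were the named peak from 46640165 to 46641060 (895 bases, score 5.32), the named peak from 46654161 to 46654920 (759 bases, score 5.51) and the peak without a name from 46604533 to 46605408 (875 bases, score 5.55). The longest peak was followed 321 bases later by a peak without a name from 46641381 to 46641760 (379 bases, score 5.85), and the series ended with the peak of 759 bases. Beyond the window, the nearest plus-strand peaks of chromosome 16 lay 6490 kb before and 1181 kb after the named peaks, with scores of 6.96 and 5.50. A window of 100 kb therefore gave the same 11 peaks, while a window of 20 kb left out the first peak and gave 10. In the gene order of GRCr8 the named protein-coding neighbours are Aga and Dctd.

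**Figure D2:**
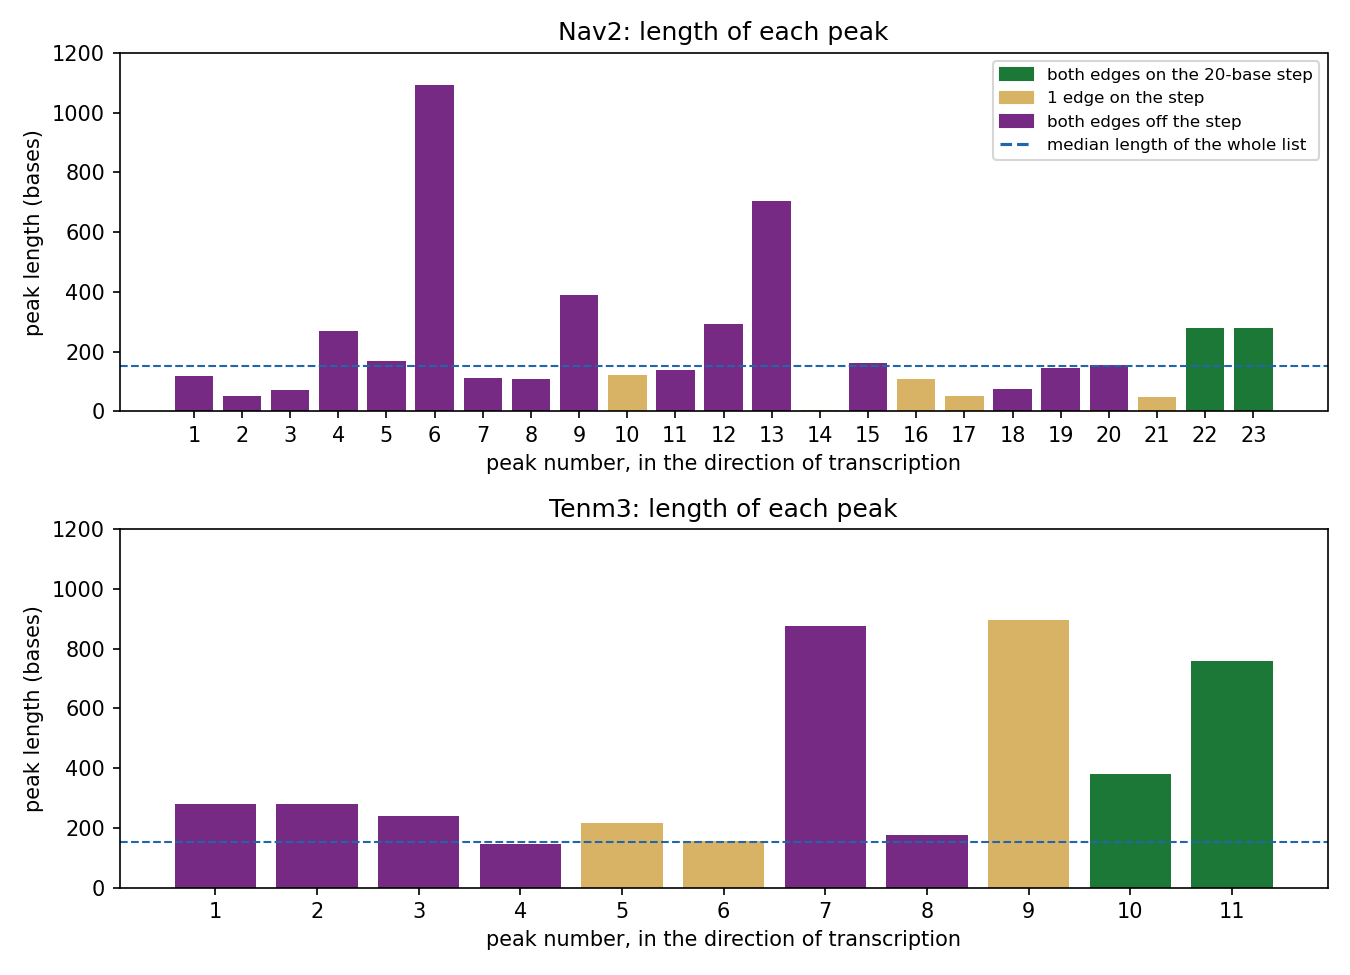
Length in bases of each peak at Nav2 and Tenm3 in the order of transcription, coloured by how many of its edges lie on the 20-base step, with the median length of the whole list (152 bases) as a dashed line. The typical Nav2 peak was close to the list in length, and most Nav2 peaks had both edges off the step. The Tenm3 series ended with 2 peaks whose edges were both on it, as for 495 of the 4014 peaks of the list.

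Many edges in the list fall on a step of 20 bases, with a start 1 base past a multiple of 20 or an end at one, while the other edges were placed elsewhere. Both edges were off this step for 16 of the 23 Nav2 peaks and 6 of the 11 Tenm3 peaks, against 51.6% of the peaks of the list. Both edges were on the step for 2 peaks of Nav2, the close pair at the end of the series. The same held for 2 peaks of Tenm3, those of 379 and 759 bases at its end, and for 495 of 4014 in the list. Whether edges off the step are exon borders was not tested. The 23 Nav2 peaks added up to 4948 bases, of which the named peaks held 963, and the 11 Tenm3 peaks to 4402 bases, of which the named peaks held 2297.

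Plxnc1 had 2 minus-strand peaks on chromosome 7, 21 bases apart. The named peak, from 36062665 to 36063300, was 635 bases long with a score of 13.1, rank 5 in the list. The peak upstream of it on the transcript strand, from 36063321 to 36063727, had no name, was 406 bases long and had a score of 7.57, rank 1879. The 2 neighbours therefore differed greatly in score although they were longer than 92.3% and 84.2% of the peaks of the list. Each had 1 of its 2 edges on the 20-base step, the edges that face each other, and together they spanned 1062 bases.

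The limit of 50 kb mattered most at Plxnc1. Another 4 minus-strand peaks lay from 76.9 kb to 97.0 kb downstream of the named peak in the direction of transcription, and 0 were named. The farthest, from 35965480 to 35965684 (204 bases), had a score of 13.1 and ranked 7 in the list, while the named peak ranked 5. The peak from 35973758 to 35973898 (140 bases, score 12.5) ranked 46 and the peak from 35985709 to 35985812 (103 bases, score 12.1) ranked 112. The last, from 35968827 to 35968927, was 100 bases long with a score of 6.33. With these the minus strand held 6 peaks from 35965480 to 36063727, of which 4 scored above 12. Beyond them the nearest minus-strand peaks were 5978 kb and 18740 kb from the named peak. In the GRCr8 gene order the named protein-coding neighbour on the downstream side is Cep83, on the other strand, and that on the upstream side is Cradd. Whether these 4 peaks belong to Plxnc1 was not tested.

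**Figure D3:**
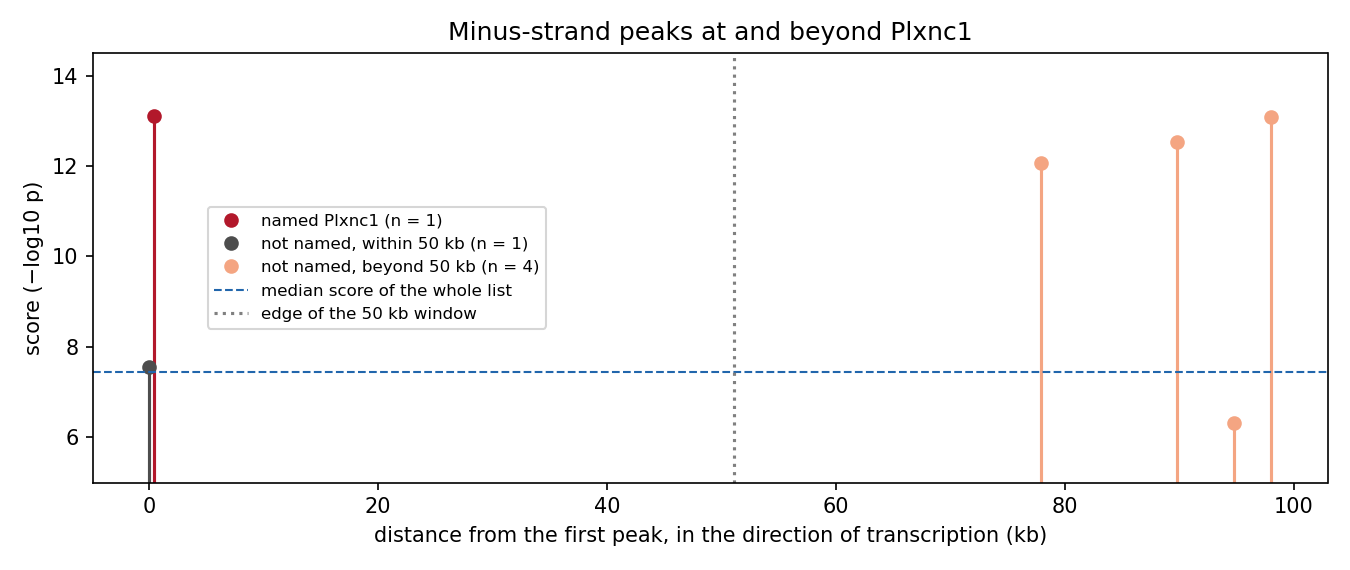
Score (−log10 p) of the 6 minus-strand peaks at and beyond Plxnc1 against the distance in kb from the first peak, with the edge of the 50 kb window as a dotted line and the median score of the list as a dashed line. The named peak and 3 of the 4 peaks beyond the window scored above 12.

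Compared with the other genes that had at least 4 named peaks, the peaks of Nav2 and Tenm3 covered longer stretches of the genome. That is a description without a test. The other 6 genes at 1 locus covered between 32.4 kb and 90.4 kb, against 241 kb at Nav2 and 497 kb at Tenm3. This depended on the limit of 4 named peaks. Adgrl3, a related gene described below with 3 named peaks, covered 294 kb, more than Nav2 and less than Tenm3. The peaks of the other related genes outside the members covered at most 37.8 kb, at Sema3e. Nav2 had more named peaks than any of the other 8 genes in these rows, but it was chosen for that number, so nothing is read from this. Counted in the same way, Abca1, which encodes a cholesterol exporter, had 29 peaks over 88.9 kb, and Cenpe, which encodes a mitotic motor, had 20 over 38.3 kb. Tenm3 was followed by Kif11, another mitotic motor, with 10 peaks over 45.8 kb. The share of peaks that were named was 30.4% at Nav2 and 45.5% at Tenm3, between 20.7% at Abca1 and 80% at Bcl11b. By the median score of the named peaks, the gene most like Tenm3 was Kif11 with a difference of 0.01, and those most like Nav2 were Tenm3 with 0.61 and Kif11 with 0.62. For Plxnc1, which has 1 named peak, the nearest was Hmgb3 with a difference of 3.19. This order held only for the few named peaks. Over all peaks on the strand, the gene nearest to Tenm3 was Nav2 with a difference of 0.79, against 1.28 for Kif11, and those nearest to Nav2 were Bcl11b with 0.38 and Gas7 with 0.40. The nearest to Plxnc1 was then Abca1 with 0.13, but the Plxnc1 median is the midpoint of 2 unlike scores, 13.1 and 7.57. Plxnc1 was also chosen for its score, so nothing is read from its likeness to Hmgb3 or Abca1. The named peaks of Hmgb3 did not all lie on 1 strand of 1 chromosome, so it was not counted as 1 locus.

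**Figure D4:**
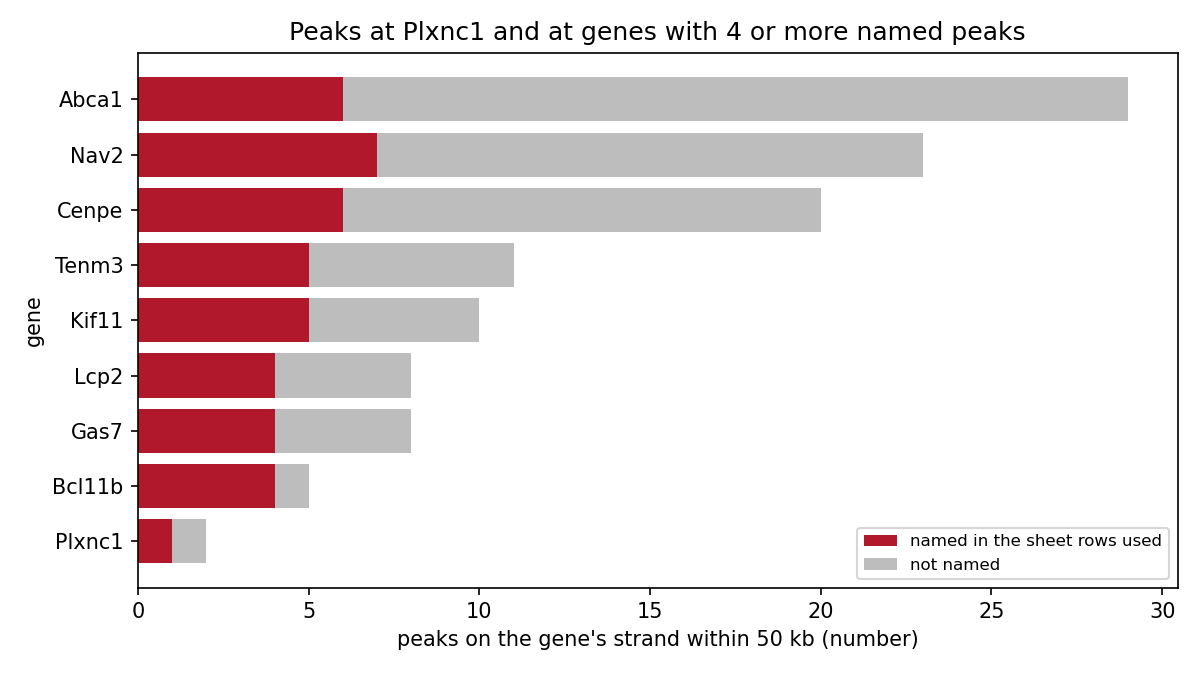
Number of peaks on the strand of the gene within 50 kb of its named peaks, split into named (red) and not named (grey), for Plxnc1 and the 8 genes at 1 locus with at least 4 named peaks. Nav2 with 23 peaks stood between Abca1 with 29 and Cenpe with 20, and Tenm3 had 11.

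Related genes were looked up by name in the same rows, which cover only part of the list, so that the numbers are lower bounds. The rows hold no peak with lower methylation after SNI, so genes of these lists whose peaks are of that kind cannot appear among them, and a gene without a named peak here may have peaks in the list. Of the 73 genes of these lists 9 had a named peak, against 1.63% of the 23154 protein-coding genes of the reference table, not all of which need be expressed in nerve. The lists hold the members and were chosen with these rows known, so nothing is read from this difference. Of 3 neuron navigators Nav2 had named peaks, and of 4 teneurins Tenm3. Of the 6 teneurin partners, Adgrl3 and Flrt3 had named peaks. Adgrl3 encodes latrophilin 3, a receptor that binds teneurins and FLRT proteins, and Flrt3 encodes one of the latter. Of the 9 plexins Plxnb2, a receptor for class 4 semaphorins, had a named peak beside Plxnc1. Of 20 semaphorins 1 had a named peak, Sema3e, which encodes a secreted ligand of plexin D1, and of 4 semaphorin co-receptors 0 had one in these rows. Among 27 other axon guidance genes there were peaks at Srgap1, which encodes a GTPase-activating protein in Slit-Robo signaling, and at Trio, which encodes a guanine nucleotide exchange factor.

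Adgrl3 had 6 minus-strand peaks on chromosome 14 over 294 kb, of which 3 were named. The named peaks scored 7.04, 5.74 and 6.37, while the highest score of 10.5 belonged to a peak without a name from 28602063 to 28602277. At Nav2 the highest scores also had no name, but only 13.1% of all peaks of the list had a name in these rows. In the windows of Tenm3, Plxnc1 and Flrt3 the highest score was that of a named peak, which for Plxnc1 followed from its choice by score. At Sema3e and Trio it belonged to a peak without a name. Flrt3 had 4 minus-strand peaks on chromosome 3 within 11.3 kb, and its named peak, from 141138860 to 141139061 (201 bases), had a score of 11.7. The other 3 scored 6.27, 7.12 and 11.3.

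Around the single named peak of Sema3e, from 17309790 to 17309957 on chromosome 4 (score 7.65), 7 minus-strand peaks lay over 37.8 kb with scores from 7.10 to 9.43. The named peak of Plxnb2 stood alone on chromosome 7 from 129836882 to 129836927, with 45 bases and a score of 6.80. That of Srgap1, from 64353012 to 64353208 on the same chromosome, stood alone as well and had a score of 9.65. Trio had 3 minus-strand peaks on chromosome 2 with scores from 5.12 to 6.29, all below the median of the list. The number of peaks in the window thus ranged from 1 to 7 among these related genes, against 23 at Nav2, 11 at Tenm3 and 2 at Plxnc1. The windows differ in width, since they reach from the outermost named peaks. Nav2 and Tenm3 were also chosen for their number of named peaks, so nothing is read from this difference.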

How the data were processed

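MeRIP-seq libraries (IP and input) of 3 control and 3 SNI sciatic nerves were used. The authors trimmed reads with cutadapt (1.9.3), aligned them to rn5 with HISAT2 (2.0.4), used MACS to detect peaks and diffReps, over all replicates, to find those that differed between SNI and control, filtered by fold change and p-value. The version of MACS and of diffReps is not given in the sources used here. The deposited list has 6 columns and its score is the authors' −log10 p-value. No count, fold change or value per library is in the list, so the depth behind each peak and its replicate error are unknown and no test was run. The read totals of the libraries do not enter the list and are not reported here.

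Peaks were read with their positions as deposited, and length is end minus start. Starts may count from 1, which would add 1 base to each length. Names were taken from 526 rows of the study's supplementary sheet, which is shortened here, by identical peak, start and end, and all 526 were found in the list. The fold changes and p-values of that sheet were not used. Windows reached 50 kb beyond the outermost named peaks. The genes named in the text are the members, genes of the lists of related genes with a named peak, and genes with at least 4 named peaks, and their neighbours in the RefSeq gene table of GRCr8, whose coordinates were not used. Members and lists were chosen with earlier results of these data known. Window, merging and grouping functions were tested on simulated data. Python 3.11.15, numpy 2.4.6, pandas 2.3.3 and matplotlib 3.10.9 were used.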

Additional observations from a re-analysis of the deposited data

How the results depend on the processing

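Each number of peaks, median length and median score was recomputed under 11 alternatives, and the joined groups under 2 that were chosen after seeing the data. This gave 103 values, of which 86 stayed within a limit and 17 moved. The limit was 1.5 times for numbers and 1 SD between the peaks of the gene for medians. The SD limit was wide. For length it was 242 bases at Nav2 and 294 bases at Tenm3, above the medians of 139 and 279 bases. At Plxnc1 it rested on only 2 peaks. Some alternatives, such as 1 base added to each length, could not change the number of peaks. The count of 86 is therefore no measure of stability. At Nav2 a score of at least 8 left 2 of 23 peaks with a median score of 10.3, and the named peaks alone were 7. At Tenm3 a score of at least 6 left 6 of 11 peaks, a score of at least 8 left 0, the named peaks alone were 5 and the others 6. At Plxnc1 a window of 100 kb gave 6 peaks in place of 2 and a median length of 172 bases in place of 520.5. A window of 0 kb, a score of at least 8, the named peaks alone and the others alone each left 1 peak there, and merging peaks less than 100 bases apart joined both into 1 peak of 1062 bases. With peaks joined up to 40 kb the largest Nav2 group held 13 peaks in place of 23, and up to 100 kb the Plxnc1 group held 6 in place of 2. The score thresholds and the split by name can only remove peaks. At Tenm3 no median could be given at a score of at least 8. Since the list holds no value per library, no replicate could be left out. No paired analysis was possible because the libraries enter the list only through 1 pooled comparison.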
